A study of Mus musculus with 6 samples.

Results

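The Bcl2 family of apoptosis regulators was examined in mouse tumors, reported as primary osteosarcomas, that carried or lacked Cd44. The family was represented by 10 genes, chosen by symbol: the pro-survival members Bcl2, Bcl2l1 and Mcl1, the effectors Bax and Bak1, and the BH3-only members Bcl2l11, Bbc3, Pmaip1, Bid and Bad. Each was 1 row of the 39179 genes counted. The mRNA of 6 tumors was sequenced. The comparison asks which transcripts differ between tumors with and without Cd44, which encodes a cell surface receptor for hyaluronan. Tumors No244, No316 and No368 came from Cd44+/+ mice and tumors No203, No279 and No364 from Cd44-/- mice, on a mixed background of C57BL/6, 129/Sv and FVB. All 6 mice, controls included, were heterozygous for the Nf2Δ2 mutation of the merlin gene, so no group had intact Nf2. Cd44 was absent from the germ line in the Cd44-/- mice, so that every cell type of a tumor and its host shared the genotype. No treatment was given in the labels for any tumor. The labels name osteosarcoma as the tissue, while their extraction text speaks of cell lines and the methods of the study speak of tumor tissue.

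Proteins of the Bcl2 family control the permeability of the mitochondrial outer membrane. The pro-survival members hold the effectors in check, the effectors form pores that release cytochrome c into the cytosol, and the BH3-only members relay stress by occupying the pro-survival proteins or by activating the effectors. Many of these steps are set by protein binding, phosphorylation and protein turnover, which mRNA counts do not measure.

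Total counts ranged from 18076388 to 26954142 per tumor, and mitochondrially encoded genes took 55.2% of them in No244 and 5.94% to 12.5% in the other tumors. No316 and No368 differed by less than sampling noise for 87.2% of 16671 genes, against 15.7% to 24.0% in the other 14 pairs of libraries. The pair entered each mean as their average, which leaves n = 2 for Cd44+/+ and n = 3 for Cd44-/-. Levels are given as CPM, counts scaled to a common library size with the TMM factors of edgeR, and values set side by side follow the order No244, No316, No368 for the Cd44+/+ tumors and No203, No279, No364 for the Cd44-/- tumors. Cd44 itself had 137, 243.6 and 240 CPM in the Cd44+/+ tumors and 19.2, 15.7 and 61.8 CPM in the Cd44-/- tumors. All 9 hepatocyte markers were counted in every tumor, with a summed level of 142707 CPM in No364 and 83.1 to 194 in the other tumors. The 7 osteoblast markers summed to between 16897 and 27771 CPM in the Cd44+/+ tumors and to 38901, 13522 and 3033 CPM in the Cd44-/- tumors. None of these markers was at 0, but Sp7, a defining osteoblast transcription factor, was at 3.96 CPM in No279 and 0.31 CPM in No364. It was at 192 to 333 CPM in the other 4 tumors. Alpl, Bglap and Ibsp were at 7.16, 4.79 and 3.27 CPM in No279 and at 19.6, 6.80 and 2.25 CPM in No364. In the other 4 tumors they were at no less than 481, 269 and 640 CPM, respectively. The sum of No279 was mostly Col1a1, at 11990 CPM. Runx2 and Spp1 were at 68.3 and 1444 CPM in No279 and at 5.76 and 2233 CPM in No364. The 5 skeletal muscle markers summed to 17168 CPM in No244 and to between 13.5 and 547 CPM elsewhere, and the 4 epithelial markers to 1967 CPM in No364 and at most 36.3 CPM elsewhere. The 5 erythroid markers summed to 5370 CPM in No244 and 1943 CPM in No364, against 75.2 to 390 CPM in the others. In bulk RNA, fewer cells of a type and less RNA per cell cannot be told apart, and the part of these other cell types in the values of the family was not tested. No279 and No364, the tumors with little Sp7, were both Cd44-/-. A difference by genotype and a difference by the kind of tumor therefore cannot be told apart here.

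**Figure D1:**
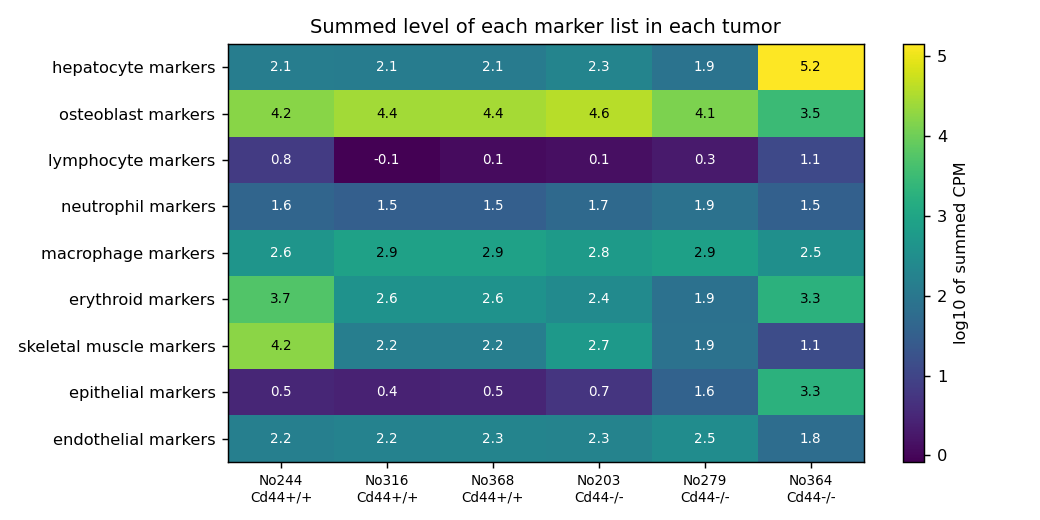
Summed level of each marker list (rows) in each tumor (columns), printed and colored as log10 of the summed CPM. Hepatocyte and epithelial markers are highest in No364, skeletal muscle and erythroid markers in No244, and osteoblast markers lowest in No364.

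The promoters of the family were read from RefSeq for the GRCm38.p6 assembly as the 250 bases before each annotated start. Entries were found for 9 of the 10 members, with 15 promoters among them, and Pmaip1 was not matched. Their GC content ranged from 47.6% to 81.6%, and 13 of the 15 lay above the median of 52.4% over 32851 promoters. The motif CCTGCG, known as the response element of the released intracellular domain of CD44, was searched on both strands, where its reverse complement reads CGCAGG. It was found in 5 promoters of Bcl2l11, Bcl2l1, Bid and Bad, and in 14.1% of all promoters. These 5 windows of 30 bases are shown because the motif belongs to the gene that the tumors carry or lack, with the motif in capitals and the strand of the gene after the coordinates.
Bcl2l11, chr2:128125788-128125817, +: tgccCGCAGGccaagacactagggtaaaca
Bcl2l11, chr2:128127523-128127552, +: cggcgccaggggCGCAGGgctggcggtgcc
Bcl2l1, chr2:152830848-152830877, -: cctgtccgcgtcCCTGCGcgaaaccttgag
Bid, chr6:120916958-120916987, -: gactctggggagCGCAGGttccgggtgtac
Bad, chr19:6942434-6942463, +: ccagcaggtcggCGCAGGggtgggacctgg
The matches began 246, 40, 148, 151 and 116 bases before the annotated start in the order shown. The forkhead core GTAAACA, or TGTTTAC on the other strand, is the site through which FoxO factors are known to act on BH3-only genes. It was found in 3.17% of all promoters and in 1 promoter each of Bcl2l11 and Bbc3, where it is shown in capitals. The window of Bcl2l11 overlaps the first one above.
Bcl2l11, chr2:128125800-128125829, +: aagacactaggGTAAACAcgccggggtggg
Bbc3, chr7:16310083-16310112, +: tctggcgggttTGTTTACaaacaatggggt
The p53 decamer was found in 7.13% of all promoters and, within the family, only in that of Bax, a known p53 target. It is shown in capitals in the next line.
Bax, chr7:45467080-45467109, -: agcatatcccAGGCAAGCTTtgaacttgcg
A pair of decamers was found in 0.0639% of all promoters and in no member, and the TPA response element, TGACTCA or TGAGTCA, in 4.46% of all and in no member. These matches describe the letters of the windows and say nothing about binding in the tumors.

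Levels were first compared between members per length, as CPM per kb of annotated exon, over 5 samples with No316 and No368 averaged. Mcl1, whose protein is short-lived and restrains Bak1 and Bax, led with 77.9 ± 10.1 CPM per kb (SD, n = 5), and Bax followed with 35.6 ± 7.99. Bak1 was at 15.5 ± 7.29 CPM per kb, Bcl2l1 at 9.85 ± 7.70, Bid at 9.02 ± 5.01 and Bad at 8.40 ± 1.88. At the low end Bcl2l11 was at 4.37 ± 1.68 CPM per kb, Bbc3 at 4.11 ± 2.26, Bcl2 at 3.02 ± 1.18 and Pmaip1 at 2.51 ± 1.56. Mcl1 exceeded Bax and Bax exceeded Bak1 in all 6 tumors, as Bad did Bcl2l11. The neighbors Bcl2l1 and Bid were in this order in 2 of 6 tumors, Bid and Bad in 3, and Bbc3 and Bcl2 in 2, so these do not differ beyond their spread. The order of Bcl2l11 over Bbc3 was seen in 4 tumors, and that of Bak1 over Bcl2l1 and of Bcl2 over Pmaip1 in 5. These counts of tumors take No316 and No368 separately, although the means take them as 1 sample.

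Within each role, 1 member made up most of the pro-survival and effector transcripts in every tumor. Per length, Mcl1 took 74.4% to 93.8% of the pro-survival sum and Bax 51.9% to 85.1% of the effector sum. Bcl2l1 took its largest share in No364, 24.0%, and its smallest in No244, 2.94%. Bcl2, after which the family is named, took 1.64% to 5.78%. No BH3-only member led throughout: Bid had the largest share in No316, No368 and No203, and Bad in No244, No279 and No364. The summed level of each role ranged across the tumors from 80.1 to 100.2 CPM per kb for the pro-survival members, from 43.5 to 55.9 for the effectors and from 23.7 to 33.0 for the BH3-only members.

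**Figure D2:**
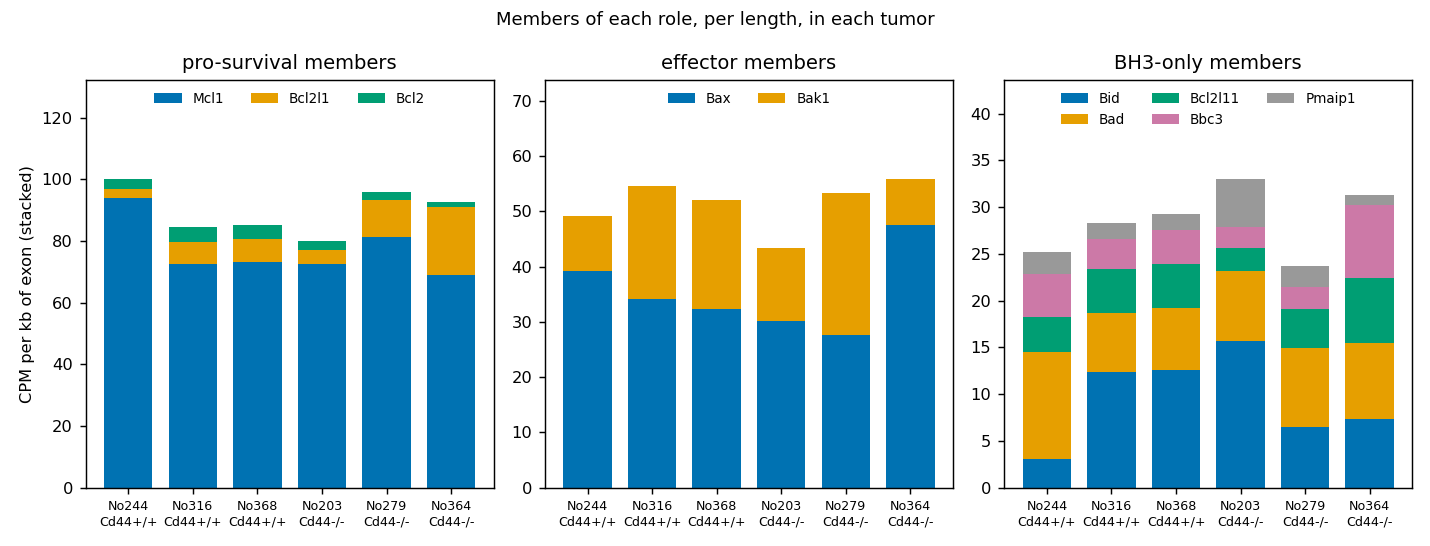
Stacked bars give CPM per kb of exon of each member in each tumor, in a panel for each role, with the genotype under the tumor number. Mcl1 forms most of each pro-survival bar and Bax most of each effector bar, while the BH3-only bars differ in their makeup between tumors.

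Among the pro-survival members, Bcl2 was the only one of all 10 members whose genotypes did not overlap. Bcl2, which encodes an inhibitor of apoptosis on the mitochondrial and endoplasmic reticulum membranes, had 29.9, 44.8 and 42.7 CPM in Cd44+/+ tumors against 26.1, 24.5 and 13.9 CPM in Cd44-/- tumors. Every Cd44-/- tumor lay below every Cd44+/+ tumor, with a narrow gap between No203 and No244. The log2 fold change of Cd44-/- over Cd44+/+ was -0.86 (SE 0.38, 95% interval -1.76 to 0.03), with an adjusted p of 0.462 by the quasi-likelihood test of edgeR, so Bcl2 did not pass the test. It was -0.63 without No364, -1.03 without No244 and -0.79 (adjusted p = 0.818 by edgeR) with No316 and No368 summed. Over all 16839 genes tested, 19.1% had genotypes that did not overlap and 9.57% were lower throughout in Cd44-/-, so 1 member of 10 was near that background. Bcl2 shares 558 exon bases with the antisense gene D630008O14Rik, and the strand setting of the counting was not given.

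Bcl2l1, which encodes Bcl-xL, had the widest range of the family and the largest fold change, though it did not pass the test either. Cd44+/+ tumors held 13.5, 33.3 and 34.1 CPM of it and Cd44-/- tumors 21.6, 55.1 and 102 CPM. No279 and No364 were above all Cd44+/+ tumors, No203 lay within them, and the highest tumor was 7.52 times the lowest. The log2 fold change was 1.14 (SE 0.64, 95% interval -0.39 to 2.67, adjusted p = 0.525 by edgeR). Without No364, the tumor with the hepatocyte markers, it was 0.51, and without No244 it was 0.81. The tumors in which Bcl2l1 was above every Cd44+/+ value were also those in which Sp7 was lowest.

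Mcl1 varied least of the family in TMM-scaled CPM. Its levels were 321, 248 and 250 CPM in Cd44+/+ and 248, 277 and 235 CPM in Cd44-/- tumors, which overlapped. The highest tumor was 1.37 times the lowest, and 0.938% of the tested genes had a smaller range. Per total count the range was wider, with 8404 of 24552557 counts in No279 and 4499 of 26954142 in No364. The log2 fold change was -0.11 (SE 0.39, 95% interval -1.03 to 0.82, adjusted p = 0.928 by edgeR), an interval that leaves room for a change of either sign.

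**Figure D3:**
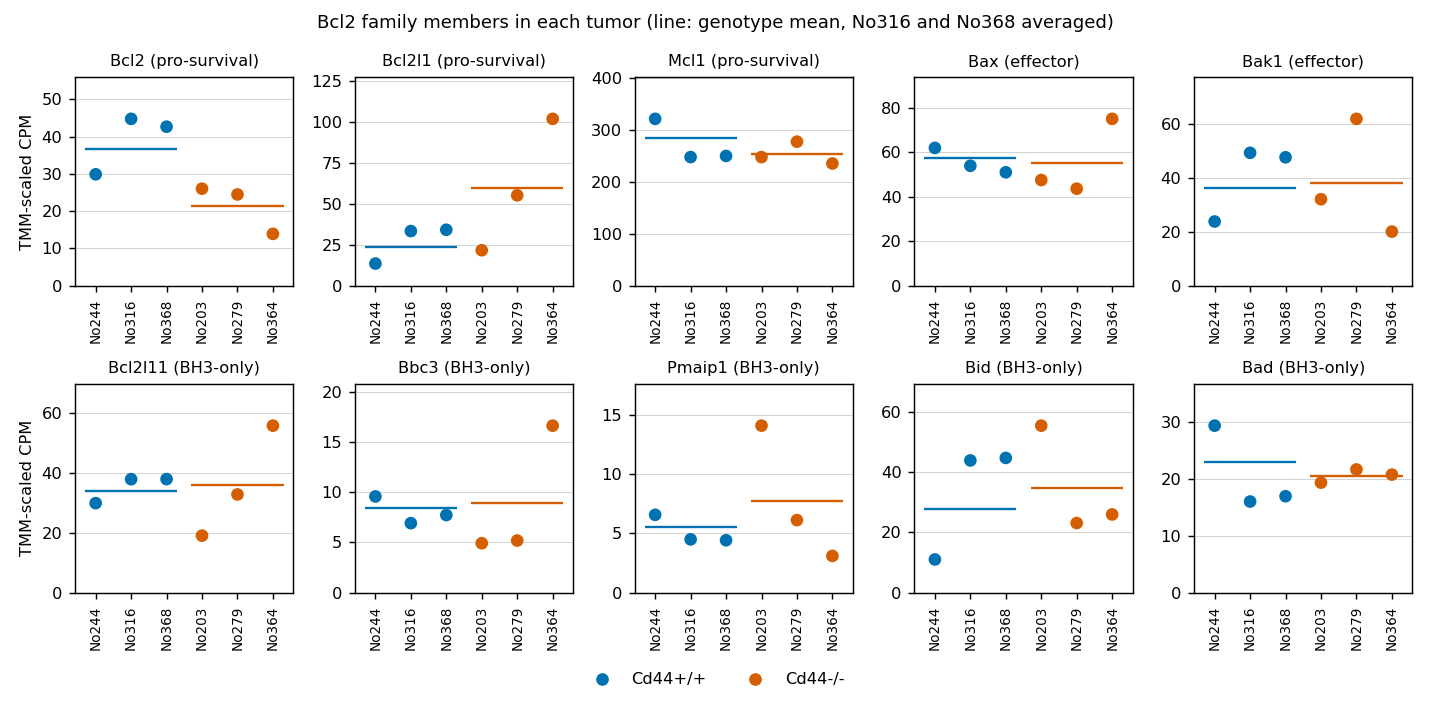
TMM-scaled CPM of each member (vertical axis, from 0) in each tumor (horizontal axis), with Cd44+/+ tumors in blue and Cd44-/- tumors in orange; the lines are genotype means with No316 and No368 averaged. Only for Bcl2 do all orange points lie below all blue points, from 13.9 to 26.1 against 29.9 to 44.8 CPM.

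The effectors showed no difference in either direction that passed the test. Bax levels were 61.9, 53.9 and 50.97 CPM in Cd44+/+ and 47.5, 43.6 and 74.99 CPM in Cd44-/- tumors. No364 was above and the other Cd44-/- tumors below every Cd44+/+ tumor, which gave a log2 fold change of -0.01 (SE 0.34, 95% interval -0.81 to 0.80, adjusted p = 0.996 by edgeR) and -0.28 without No364. Bak1, the effector that resides on mitochondria, reached 23.8, 49.2 and 47.6 CPM with Cd44 and 32.0, 61.8 and 20.04 CPM without it. The genotypes overlapped, with the lowest and the highest tumor both Cd44-/-, and the log2 fold change was -0.08 (SE 0.52, 95% interval -1.31 to 1.15, adjusted p = 0.960 by edgeR), or 0.23 without No364. In TMM-scaled CPM the effectors thus stood at opposite ends in No364, Bax at its highest and Bak1 at its lowest of the 6 tumors. These ranks depend on the TMM factors, which were 0.740 in No364 and 0.565 in No244. Per total count, Bax was higher in No316 (1551 of 21906828 counts) than in No364 (1433 of 26954142). Bak1 was lower in No244 (283 of 21093300 counts) than in No364 (383 of 26954142). Bak1 shares 437 exon bases with Ggnbp1 on the opposite strand, and Bax shares 192 with Gm45808, which was not counted.

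None of the 5 BH3-only members passed the test. Bcl2l11, which encodes Bim, a direct activator of the effectors, had 29.9, 37.9 and 38.0 CPM in Cd44+/+ and 19.0, 32.8 and 55.8 CPM in Cd44-/- tumors. Bbc3, which encodes the p53 target Puma, had 9.58, 6.92 and 7.72 CPM and 4.92, 5.18 and 16.6 CPM. For both genes No203 was the lowest tumor and No364 the highest in TMM-scaled CPM. Per total count, Bcl2l11 was lower in No244 (356 of 21093300 counts) than in No203 (480 of 22676640). It was also higher in No316 (1091 of 21906828 counts) than in No364 (1067 of 26954142). The forkhead core was found in promoters of Bcl2l11 and Bbc3, but a link between this motif and their levels was not tested. Bax and Bcl2l1, in whose promoters the core was not found, were also highest in No364 in TMM-scaled CPM. The log2 fold changes of Bcl2l11 and Bbc3 were 0.03 (SE 0.44) and 0.14 (SE 0.61), with adjusted p-values of 0.986 and 0.941 by edgeR. Both turned negative without No364, at -0.44 and -0.67. With No364 left out, Bbc3, Bax and Bcl2 were each lower in both remaining Cd44-/- tumors than in every Cd44+/+ tumor. In that comparison 28.7% of all tested genes did not overlap, a share that counts both directions.

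Pmaip1, which encodes Noxa, a p53 target that binds Mcl1, was low in all tumors, with 6.55, 4.48 and 4.41 CPM in Cd44+/+ and 14.1, 6.11 and 3.09 CPM in Cd44-/- tumors. No203 stood above the other tumors and No364 below them. The log2 fold change was 0.59 (SE 0.65, 95% interval -0.96 to 2.15, adjusted p = 0.734 by edgeR), but -0.19 without No203 and 0.98 without No364. In TMM-scaled CPM, Pmaip1 and Bcl2l11 thus took opposite ends in both of these tumors.

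Bid, which links caspase-8 to the mitochondria once it is cleaved, had 11.01, 44.0 and 44.8 CPM in Cd44+/+ and 55.6, 23.1 and 26.01 CPM in Cd44-/- tumors. No203 was the highest tumor and No244 the lowest, with a ratio of 5.05 between them, and the genotypes overlapped. Bad, whose protein is held inactive by survival kinases, had 29.3, 15.99 and 16.9 CPM and 19.3, 21.6 and 20.7 CPM. No244 was its highest tumor in TMM-scaled CPM, and the Cd44-/- tumors lay between No244 and the pair of No316 and No368. The log2 fold changes were 0.07 (SE 0.62) for Bid and -0.01 (SE 0.37) for Bad, with adjusted p-values of 0.973 and 0.991 by edgeR. Without No244, the tumor with the mitochondrial and muscle transcripts, they were -0.35 and 0.31. Bid shares 628 exon bases with Bcl2l13 and Bad shares 524 with Gpr137, both on opposite strands.

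**Figure D4:**
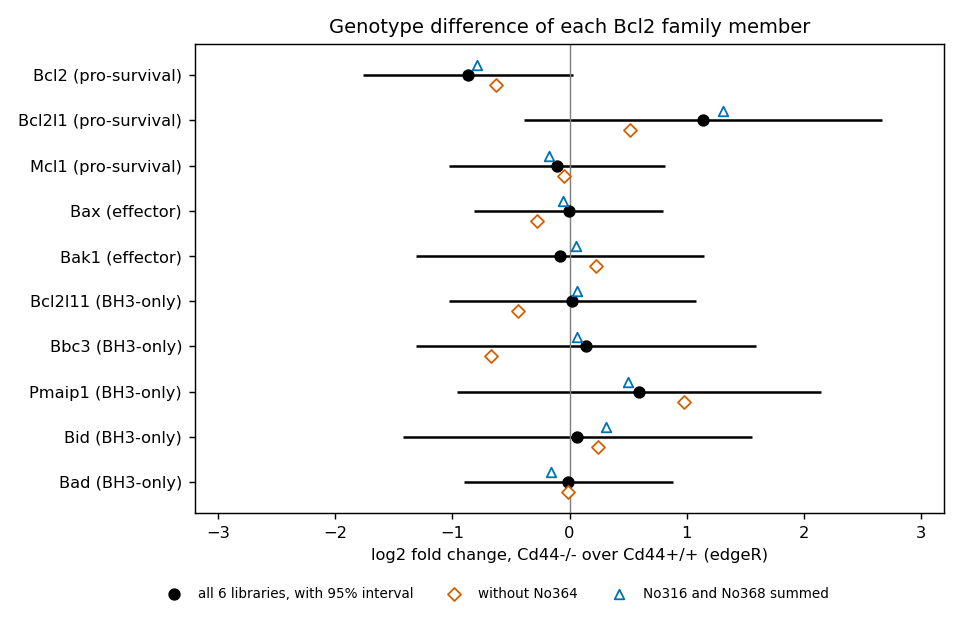
Log2 fold change of Cd44-/- over Cd44+/+ for each member: black points with 95% intervals from edgeR on all 6 libraries, orange diamonds without No364, and blue triangles with No316 and No368 summed. Every interval includes 0, with those of Bcl2 (-1.76 to 0.03) and Bcl2l1 (-0.39 to 2.67) farthest to either side.

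Over the family, all 10 members passed the low-count filter, with 59 to 8404 counts per tumor. edgeR called 0 of them at an adjusted p under 0.05 and 0.0% of all genes tested. At an unadjusted p under 0.05 edgeR found 0 members and 10.7% of all genes, and DESeq2 called 0 members and 2.33% of all genes at its adjusted threshold, with adjusted p-values of 0.398 to 0.998 for the members. The median log2 fold change of the members was 0.01, against 0.11 over all genes tested, and the median size of the change without its sign was 0.09, against 0.58. For 7 of the 10 members the log2 fold change was smaller than 0.2 in size. The background of all genes was not matched to the members by level, and the SEs of the members were 0.34 to 0.65. In TMM-scaled CPM, the ratio of the highest to the lowest tumor had a median of 3.15 over the members and 4.34 over all genes. For 7 members it lay below the latter. For the members with a log2 fold change smaller than 0.2 in size this ratio was 1.37 (Mcl1) to 5.05 (Bid). On the same scale, the highest or lowest value was in No364 for 8 members, 4 in each direction, against 49.7% of all tested genes. It was in No244 for 4 members, against 48.5%. The summed level of the 10 members was between 488 and 569 CPM in the 6 tumors. Mcl1 alone held 235 to 321 CPM, so the sum says little about the other members.

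Ratios of counts within a tumor, which do not depend on the scaling, were formed for effectors and pro-survival members. They were not corrected for exon length, which is 1576 bases for Bax and 9157 for Bcl2. A ratio can therefore be compared between tumors, but it does not give the relative level of its 2 members. Bax to Bcl2, a ratio often read in apoptosis work, was 2.07, 1.20 and 1.19 with Cd44 and 1.82, 1.78 and 5.39 without it. The highest value was in No364, while No244 was above the other Cd44-/- tumors, so the genotypes overlapped. The mean log2 ratios were 0.66 ± 0.56 (SD, n = 2) for Cd44+/+ tumors against 1.38 ± 0.91 (SD, n = 3) for Cd44-/- tumors. Their difference of 0.72 was 0.19 without No364 and 1.11 without No244. Bax to Mcl1 was between 0.157 and 0.319 in all tumors and Bcl2l11 to Mcl1 between 0.0768 and 0.237, both with the genotypes overlapping. Bak1 to Bcl2l1 was 1.12 to 1.76 in 5 tumors and 0.197 in No364. Bcl2l1 to Bcl2, a pair chosen after the values had been seen, was 0.452, 0.744 and 0.799 with Cd44 and 0.831, 2.25 and 7.31 without it. Every Cd44-/- tumor lay above every Cd44+/+ tumor, by a small margin for No203, and this choice after the values allows no test. The difference between the mean log2 ratios was 2.02, or 1.21 without No364. For the other pairs chosen in this way the genotypes overlapped, with Bcl2l1 to Mcl1 between 0.0421 and 0.432 and Bcl2 to Mcl1 between 0.0591 and 0.181.

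**Figure D5:**
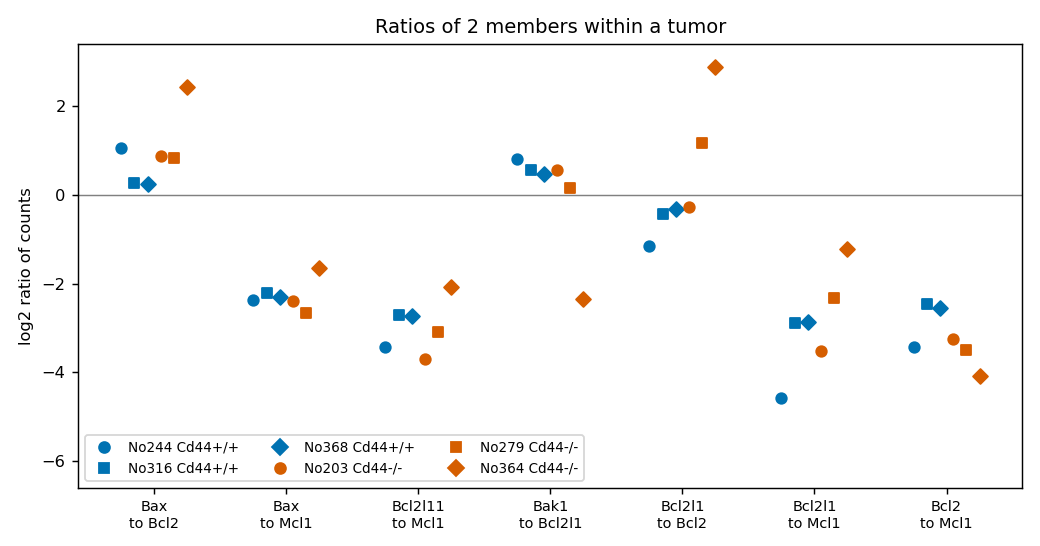
Log2 ratio of the counts of a pair of members within each tumor, with Cd44+/+ tumors in blue and Cd44-/- tumors in orange and a symbol for each tumor; the last 3 pairs were added after the values had been seen. No364 is the highest tumor for Bax to Bcl2 (5.39 as a ratio) and the lowest for Bak1 to Bcl2l1 (0.197).

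The patterns of the members across the 6 libraries were compared by the root mean square difference of their log2 CPM, each centred on its own mean, a measure that describes these libraries only. Mcl1 and Bad were nearest to each other, at 0.18, and Bcl2 and Bak1 were each nearest to the other, at 0.51. Bax was the nearest member to Bcl2l11 and to Bbc3, at 0.36 and 0.35, and Mcl1 the nearest to Bax and to Pmaip1, at 0.31 and 0.66. The nearest member to Bcl2l1 was Bcl2l11, at 0.67, and that to Bid was Bak1, at 0.78. Among 10677 tested genes with a mean of at least 10 CPM, the nearest to Bcl2 were Ddit4 at 0.06, Foxj2 at 0.13 and Srpk2 at 0.14. Ddit4, which encodes an inhibitor of mTORC1 signaling, had 156, 242 and 235 CPM in Cd44+/+ and 133, 122 and 68.98 CPM in Cd44-/- tumors, the same order of tumors as Bcl2. The nearest genes to Bax were Hsf2 at 0.07, Mrps30 at 0.08 and Sirt2 at 0.08, and those to Bcl2l11 were Kdsr at 0.09, Ptprj at 0.10 and Fam210a at 0.11.

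Other genes of the pathway were taken from fixed lists and read against the same background. Of 15 further Bcl2 family genes 13 were counted and 10 tested. edgeR called 0 of them at an adjusted p under 0.05, against 0.0% of all genes, and 0 at an unadjusted p under 0.05, against 10.7%. DESeq2 called 0 at its adjusted threshold, against 2.33% of all genes. The median log2 fold change was 0.11 over all genes tested and 0.30 over these 10. The smallest p-values were those of Bcl2l15 (log2 fold change -1.87, SE 1.06), Bnip3, a mitophagy receptor with a BH3-like domain (1.37, SE 0.82), and Bcl2l13 (0.34, SE 0.34), with adjusted p-values of 0.527, 0.544 and 0.710 by edgeR. Single tumors moved these values: Bcl2l15 was at -0.47 without No244 and -2.91 without No203, Bnip3 at 0.72 without No364, and Bcl2l13 at 0.13 without No244 and 0.20 without No364. Bnip3, like Bcl2l1, was highest in No279 and No364, at 178 and 278 CPM, against 23.6 to 71.9 CPM in the other tumors.

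Downstream of the family, 13 genes of mitochondrial release and caspase activation were tested. edgeR called 0 of them at an adjusted p under 0.05, against 0.0% of all genes. At an unadjusted p under 0.05 it called 0, against 10.7% of all genes, with 6.44% higher in Cd44-/- tumors. DESeq2 called 0 at its adjusted threshold, against 2.33% of all genes. The median log2 fold change of the 13 was 0.72, against 0.11 over all genes tested, with 10 of 13 above 0. Of the 13, 4 were higher in every Cd44-/- tumor than in every Cd44+/+ tumor, against 9.49% of all genes. Casp8, the initiator caspase that cleaves Bid, had 18.4, 35.5 and 36.5 CPM in Cd44+/+ and 57.6, 53.9 and 49.7 CPM in Cd44-/- tumors. This gave a log2 fold change of 0.83 (SE 0.36, adjusted p = 0.462 by edgeR), or 0.89 without No364 and 0.57 without No244. Vdac2, the outer membrane channel that binds Bak1, ranged from 94.0 to 108 CPM in Cd44+/+ and from 146 to 192 CPM in Cd44-/- tumors, a log2 fold change of 0.73 (SE 0.33, adjusted p = 0.472 by edgeR). The genotypes were apart for both of these genes and for Cycs, which encodes cytochrome c, and none of them passed the test after adjustment.

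Upstream of the family, 13 of 14 listed regulators were tested, with a median log2 fold change of 0.06 (0.11 over all genes tested). edgeR called 0 of them after adjustment and 2, both lower in Cd44-/- tumors, at an unadjusted p under 0.05, against 4.31% of all genes, and 4 of the 13 were lower throughout, against 9.57%. Fbxw7, a ubiquitin ligase subunit that targets Mcl1, had 84.5, 48.5 and 49.5 CPM in Cd44+/+ and 37.4, 12.5 and 15.5 CPM in Cd44-/- tumors. This gave a log2 fold change of -1.48 (SE 0.52, adjusted p = 0.452 by edgeR). Ddit3, the stress factor CHOP that is known to lower Bcl2 and raise Bcl2l11 expression, had 69.4, 68.0 and 67.3 CPM with Cd44 and 43.8, 35.7 and 17.4 CPM without it. Its log2 fold change was -1.08 (SE 0.41, adjusted p = 0.452 by edgeR), or -0.77 without No364. Huwe1, another ligase of Mcl1, had a log2 fold change of -0.68 (SE 0.38, adjusted p = 0.523 by edgeR). The levels of the ligases Fbxw7 and Huwe1 were lower in every Cd44-/- tumor, and neither gene passed the adjusted test. Usp9x, the other gene listed for protein turnover of Mcl1, overlapped between the genotypes. Its log2 fold change was 0.34 (SE 0.49, adjusted p = 0.800 by edgeR). Mcl1 protein was not measured, so an effect of these genes on it was not tested.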

How the data were processed

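The authors sequenced stranded mRNA libraries of 6 tumors and deposited raw read counts per Ensembl gene, unnormalized and not pooled. The submitters' processing notes name the GRCm38 build, HISAT2 2.0.2 and featureCounts of Subread 2.0.0. The strand setting of the counting is not given in the sources used here, so reads of overlapping genes on opposite strands cannot be told apart. The whole table of counts was fitted with the quasi-likelihood test of edgeR 4.0.16 (R 4.3.3, TMM factors, filterByExpr defaults, genotype as the only term, all 6 libraries, Benjamini-Hochberg adjustment over 16839 genes). The study's methods name DESeq2, which was run as an alternative (1.42.0), as was limma-voom (limma 3.58.1). Symbols were matched for 37693 of 39179 gene IDs.

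The family, the gene lists and the tests were chosen with earlier results of these data known. Named genes are all 10 members, Cd44, the 3 genes of each pathway list with the smallest unadjusted p, the nearest member to each member, and the 3 nearest genes to Bcl2, Bax and Bcl2l11. A gene that this rule names in the caspase list is not reported here. Sp7, the other osteoblast markers named, Usp9x, D630008O14Rik, Cycs and the genes sharing exon bases with members were named after the values were seen. Tumors, which the labels number by mouse, are the replicates, and whether No316 and No368 are separate tumors was not tested. The library pair that differed by less than sampling noise entered the test as 2 libraries, which can make the p-values too small, and as 1 sample in means and in an alternative. TMM factors ranged from 0.565 in No244 to 1.32 in No368, and 3 counts corresponded to 0.0990 to 0.252 CPM. Marker lists for lymphocytes, neutrophils, macrophages and endothelium summed to 0.834 to 11.8, 31.5 to 77.6, 339 to 840 and 63.0 to 299 CPM, respectively. Scripts were tested on simulated data before use.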

Additional observations from a re-analysis of the deposited data

How the results depend on the processing

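No paired analysis was possible because the labels number the mice and the genotypes share no number. Bcl2 stayed below 0 and Bcl2l1 above 0 in all 15 alternatives each, with adjusted p-values of 0.289 to 0.989 and 0.260 to 0.989 by edgeR, DESeq2 or limma. The sign turned with library size alone for Bcl2l11 (-0.18), Bbc3 (-0.029), Bid (-0.17) and Bad (0.086), with limma-voom for Bcl2l11 (-0.14), Bbc3 (-0.13) and Bad (0.12), and for Bcl2l11 without mitochondrial genes (-0.0078) or without the low-count filter (-0.0017). With No316 and No368 summed Bak1 was at 0.055, and with No364 also left out Bak1 was at 0.37, Bcl2l11 at -0.40 and Bbc3 at -0.74. Leaving out 1 tumor gave log2 fold changes of -0.17 to 0.019 for Mcl1, -0.28 to 0.14 for Bax, -0.63 to 0.23 for Bak1, -0.44 to 0.30 for Bcl2l11, -0.67 to 0.42 for Bbc3, -0.19 to 0.98 for Pmaip1, -0.47 to 0.33 for Bid and -0.17 to 0.31 for Bad. The cause of these turns was not tested.

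No alternative called a member after adjustment. With p under 0.05 before adjustment, the number of members was 1 instead of 0 with the size factors of DESeq2 and with limma-voom (Bcl2 in both, against 10.8% and 9.15% of all genes), and ranged from 0 to 1 when a tumor was left out (Bcl2 without No244 and Bcl2l1 without No203, against 10.8% and 17.6%). Over all genes that count was 1810, and it was 1197 with library size alone, 2543 without the low-count filter, 761 with No316 and No368 summed, 639 with No364 also left out, and 763 to 3085 when a tumor was left out. The number of members whose genotypes did not overlap was 0 with library size alone (12.5% of all genes), 3 (Bcl2, Bax and Bbc3) with No316 and No368 summed and No364 left out (31.1%), and 1 to 3 when a tumor was left out (Bad joined Bcl2 without No244, Bcl2l1 without No203, Mcl1 without No279, Bax and Bbc3 without No364), with 37.8% to 39.7% of all genes apart without No203 or No244, 29.3% without No279 and 28.7% without No364. Over the whole table the calls moved from 0 to 419 with the Wald test of DESeq2. The median log2 fold change of all genes was between 0.03 and 0.19 in every fit. The intervals, up to -0.96 to 2.15 for Pmaip1 with No316 and No368 entered as 2 libraries, limit what can be read from a missing call.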
